A study of Mus musculus with 8 samples.

Results

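The myogenic regulatory factors Myod1, Myf5, Myf6 and Myog, the paired-box genes Pax3 and Pax7 and the repressor Msc were described here by chromatin accessibility in mouse gastrocnemius muscle. The members were all regions of the deposited ATAC-seq table annotated to one of these 7 genes, 88 regions of the 489637 listed, and 32 of them carried enough signal to be tested, among 124901 tested in all. ATAC-seq inserts adapters into open DNA with a transposase, so the signal of a region is the number of reads there, scaled between libraries.

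The study compared 4 Vehicle libraries with 4 iMSBmal1KO libraries, from mice aged 6 months. All 8 samples carry the genotype Cre+:iMSBmal1 fl/fl. The Vehicle group received vehicle, and the iMSBmal1KO group received tamoxifen, which switches on the recombinase and deletes the clock gene Bmal1, so treatment with tamoxifen and loss of Bmal1 cannot be told apart. The labels name neither the promoter that drives Cre nor the hour of collection, and the titles also call the knockout samples controls. Nuclei came from homogenised whole muscle, so all cell types of the muscle contributed. Nothing in the labels says how the numbered samples of a group relate beyond being separate samples, and p-values measure the spread between these samples.

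Skeletal muscle identity rests on a small family of transcription factors. The 4 myogenic regulatory factors are basic helix-loop-helix (bHLH) proteins that pair with E-proteins and bind E-boxes, the sequence CANNTG. Myf5 and Myod1 commit cells to the muscle lineage, Myog drives terminal differentiation, and Myf6, also called Mrf4, is the family member most associated with mature fibres. Pax3 and Pax7 act upstream in muscle progenitors, and Pax7 marks the satellite cells, the stem cells of adult muscle. Msc, also called MyoR, is a bHLH repressor that competes with the activators. BMAL1 with its partner CLOCK binds the E-box form CACGTG, and Myod1 has been described as one of its targets in muscle through an upstream enhancer.

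The Myog promoter sequence is shown because the whole of it lay inside the strongest Myog region. It is the 250 bases before the RefSeq transcription start in build GRCm38.p6, chr1:134289754-134290003 on the plus strand, read 5′ to 3′ with E-boxes (CANNTG) in capitals.
Myog: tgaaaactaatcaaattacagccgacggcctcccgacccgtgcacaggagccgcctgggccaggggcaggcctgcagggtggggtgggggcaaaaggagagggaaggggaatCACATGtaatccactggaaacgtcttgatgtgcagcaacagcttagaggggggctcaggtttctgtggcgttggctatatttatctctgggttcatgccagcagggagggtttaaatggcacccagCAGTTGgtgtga

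The window held 2 E-boxes, CACATG at bases 138 to 133 before the start and CAGTTG at bases 12 to 7. Of 32851 RefSeq promoter windows of the same length, 66.2% held a CANNTG on either strand. The narrower forms CAGCTG and CACGTG, which are themselves cases of CANNTG, were in 13.0% and 6.02% of windows and not in this one. A match describes letters, not binding, and its absence in this window says nothing of the factor. The Myog region that contains the window held a mean signal of 510 in Vehicle.

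Depth ran from 4.31 to 29.5 M reads in regions (M, 1000000). Vehicle replicate 4 stood apart. It had the fewest reads, 16.5% of its reads on the mitochondrial chromosome against 1.11% to 5.51% elsewhere, and a correlation of 0.80 to 0.85 with the other libraries across tested regions. The summed genes, the member median and several regions of Myod1 and Pax7 are therefore given with and without it. The tested member regions held 1 to 1852 reads per Vehicle library and 5 to 2280 per iMSBmal1KO library, so the weak regions are the least certain. Most fibre genes were widely open in this tissue: the 10 myofibre markers had a median promoter percentile of 97.6 among 22214 genes. They ranged from 36.9 to 99.8, with Myh1 at 36.9 and Myh4 at 57.65 the lowest. Bmal1 itself, listed as Arntl, had a summed signal of 2688, 2248, 2557 and 1942 in Vehicle and 3023, 3421, 3154 and 3315 in iMSBmal1KO, which does not measure its deletion because accessibility is not gene product and the labels do not name the deleted exons.

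Promoter accessibility in Vehicle muscle differed widely between the genes. For each gene the promoter region, within 1000 bp of a listed start, with the highest signal per kb was taken, and levels were compared between genes only per kb. Myod1 stood first at 1937 ± 597 per kb (SD, n = 4), the 98.7th percentile of all genes. Its promoter region, chr7:46376132-46376666, read 2588, 1763, 2200 and 1198 per kb in the 4 Vehicle libraries. Vehicle replicate 4 was the lowest of these.

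Myf6 followed at 800 ± 273 per kb, the 83.6th percentile, in chr10:107494469-107495224. The Vehicle libraries split into a pair at 1001 and 1070 per kb and a pair at 572 and 558. Myog came next at 458 ± 61.6 per kb, the 66.9th percentile, in chr1:134289611-134290724, with 547, 426, 450 and 410 per kb. In all 8 libraries Myod1 lay above Myf6 and Myf6 above Myog, and the Vehicle ranges of these neighbours did not overlap.

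The other promoters were far lower. Myf5, Msc and Pax7 reached 116 ± 47.9, 114 ± 110 and 73.5 ± 40.0 per kb, at the 38.3rd, 37.9th and 28.3rd percentiles. Their ranges overlapped, from 50.8 to 159, from 15.3 to 264 and from 31.0 to 127 per kb. Without Vehicle replicate 4, which read 264 at Msc, the means were 118 ± 58.6, 64.4 ± 58.0 and 87.7 ± 34.4 per kb (SD, n = 3), so that Pax7 came before Msc and the order of these 3 is not settled. These values come from short regions too weak to be tested. Their tested promoter regions, chosen after the values were seen, held less per kb than these means of 4 libraries. They lay between the 3.32nd and 16.2nd percentiles of tested promoter regions, a different base from the percentiles over genes. For Myf5, chr10:107485876-107486153 held 56.2 per kb and chr10:107486839-107487003 held 87.4. For Msc, chr1:14755256-14755416 held 96.5 per kb, and for Pax7, chr4:139832891-139833105 held 54.0. No region analysed here lay within 1000 bp of the listed Pax3 start. In bulk tissue, fewer nuclei of a type and less accessibility per nucleus cannot be told apart, so a low Pax7 or Myf5 promoter does not say how open it was in any one cell.

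**Figure D1:**
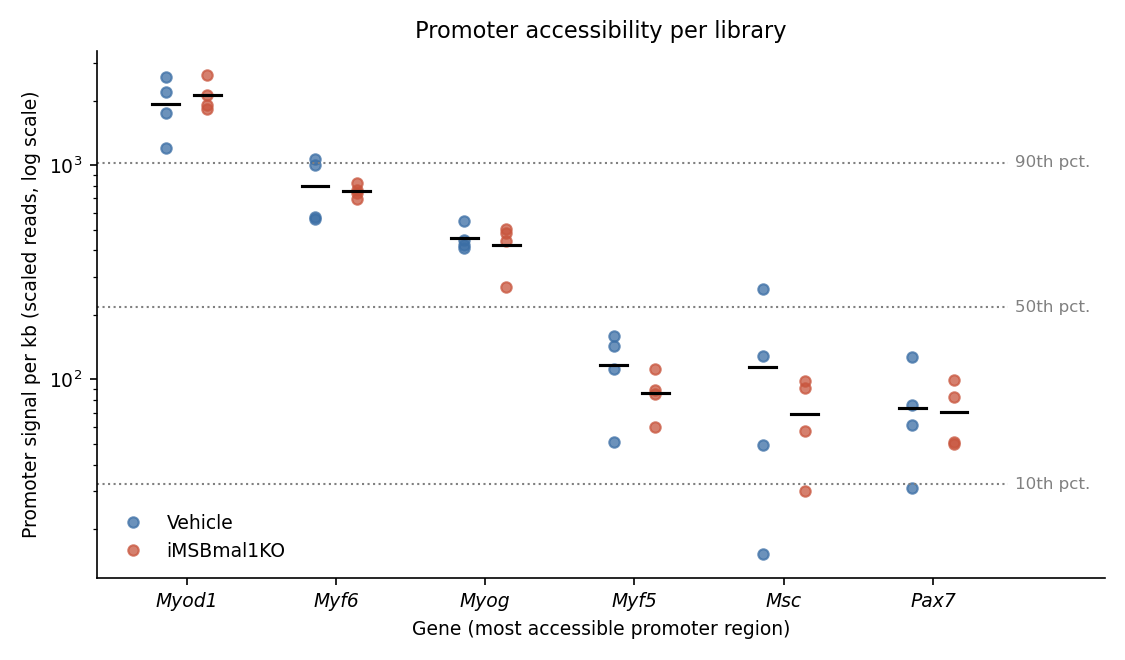
Signal per kb (log axis) of the most accessible promoter region of 6 genes, with 1 point per library (blue Vehicle, red iMSBmal1KO, n = 4 each) and black bars at the means. Dotted lines mark the 10th, 50th and 90th percentiles of Vehicle promoter signal per kb over all genes, and Myod1 alone lies above the highest of them in every library.

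Marker genes and partners gave a scale for these levels. Promoters of the E-proteins, the dimer partners of the myogenic factors, had a median percentile of 87.0. Satellite cell markers other than the members had a median of 49.7, and fibro-adipogenic, endothelial and macrophage markers 37.7, 30.8 and 12.4. Myod1, at 98.7, was close to the myofibre median, and Pax7, at 28.3, to the endothelial one.

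**Figure D2:**
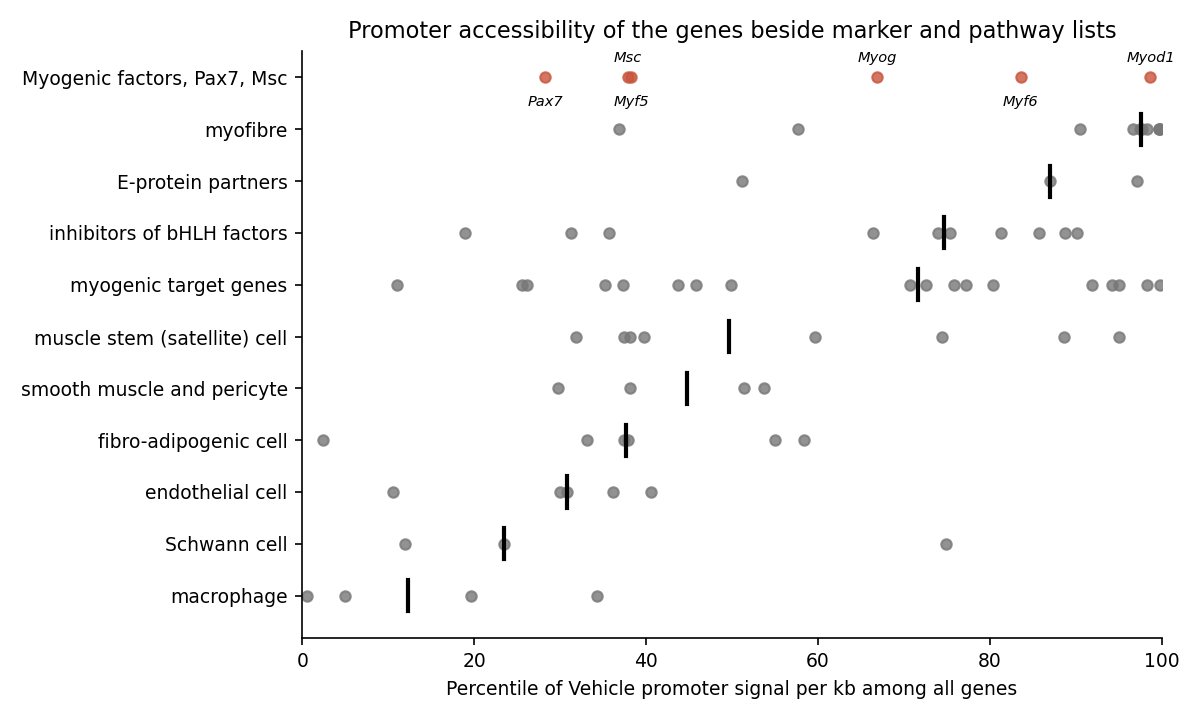
Percentile of each gene's Vehicle promoter signal per kb among 22214 genes, for 6 of the 7 genes (red, named) and for marker and pathway lists (grey points, 1 per gene, with black bars at list medians). Myod1 at 98.7 lies near the median of the myofibre markers, and Pax7 at 28.3 near that of the endothelial ones. The Pax7 point is from a region too weak to be tested.

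The genes also differed in where their signal lay. At Myod1, Myf6 and Myog a single promoter region held 74.1%, 75.3% and 90.4% of the gene's summed Vehicle signal, in 31.7%, 49.3% and 75.9% of the summed region length. At Pax7 the strongest region held 25.6% of the signal in 4.30% of the length, and 36 of the 43 Pax7 regions were intronic. Myf5 had 14 regions, 2 of them tested, and the strongest held 19.9% of its sum in 20.6% of the length. Myf5 and Myf6 are neighbours on chromosome 10, and the Myf6 sum per kb was 5.68 to 12.7 times that of Myf5 in every library.

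Accessibility summed over the regions of each gene gave 1 value per gene and library. None of the 7 genes passed an adjusted p of 0.05 in limma (Benjamini-Hochberg over 19404 genes), where 0.170% of all genes did, and none had an unadjusted p under 0.05, where 10.2% of all genes did. The median log2 change (iMSBmal1KO minus Vehicle, on the log2(signal + 1) scale) was 0.12 over all tested regions and over all genes. Under median-of-ratios scaling it was 0.01 over regions, and without Vehicle replicate 4 it was 0.04 over regions and 0.06 over genes, so single changes are to be read against that shift.

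Myod1, the lineage factor, summed to 1808, 1283, 1621 and 885 in Vehicle and 1415, 1599, 1460 and 1909 in iMSBmal1KO. The groups overlapped, and the lowest value was that of Vehicle replicate 4. The log2 change was 0.23 ± 0.19 (SE), with a 95% interval of -0.16 to 0.62 and an adjusted p of 0.632 in limma, and it was 0.03 ± 0.14 without Vehicle replicate 4. The myofibre marker list also had its lowest total, 17866, in Vehicle replicate 4, with 24243 to 29644 in the other Vehicle libraries. This was not particular to fibre markers. That library was also the lowest Vehicle library for the satellite cell (4127), smooth muscle (1260) and Schwann cell (206) lists. It was not the lowest for the fibro-adipogenic, endothelial or macrophage lists. What part this library or any cell type had in the Myod1 values was not tested.

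Pax7 had the tightest Vehicle group, 518, 457, 503 and 547, against 516, 622, 618 and 677 in iMSBmal1KO. Of the iMSBmal1KO libraries, 3 lay above all Vehicle values and replicate 1 lay among them. The log2 change was 0.26 ± 0.15, with a 95% interval of -0.05 to 0.57 (unadjusted p = 0.0963, adjusted p = 0.532 in limma). Without Vehicle replicate 4 it was 0.30 ± 0.14, with an adjusted p of 0.681.

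Myf6 summed to 1004, 1005, 618 and 588 in Vehicle and to 644, 710, 769 and 829 in iMSBmal1KO. The iMSBmal1KO libraries lay between the 2 Vehicle pairs. The log2 change was -0.08 ± 0.18 (95% interval -0.47 to 0.30), and it turned to 0.04 when Vehicle replicate 1 or replicate 2 was left out and moved to -0.22 without replicate 4.

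Myog summed to 662, 518, 568 and 510 in Vehicle and to 351, 605, 555 and 629 in iMSBmal1KO. Only iMSBmal1KO replicate 1 lay below the Vehicle range. The log2 change was -0.11 ± 0.18 (95% interval -0.48 to 0.27), and 0.08 without that library. Without Vehicle replicate 4 it was -0.15 ± 0.18. Myf5, Msc and Pax3 summed to under 100 in every library.

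For Myf5 the means were 78.7 ± 15.2 and 69.0 ± 10.5 (SD, n = 4), a log2 change of -0.18 ± 0.21 with an interval of -0.61 to 0.25, and -0.28 ± 0.20 without Vehicle replicate 4. All 4 iMSBmal1KO values lay below the Vehicle mean, and the groups overlapped. For Msc the means were 54.2 ± 10.4 and 45.5 ± 7.92, a log2 change of -0.24 ± 0.22 with an interval of -0.71 to 0.22. The Msc change was -0.13 ± 0.22 without Vehicle replicate 4, and 0.17 when only its 1 tested region was used. For Pax3 they were 20.4 ± 5.26 and 21.1 ± 2.62, a log2 change of 0.07 ± 0.29, which turned negative in 4 of 13 alternatives, among them -0.04 without Vehicle replicate 4. These intervals leave room for changes of either sign at each of the 7 genes.

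**Figure D3:**
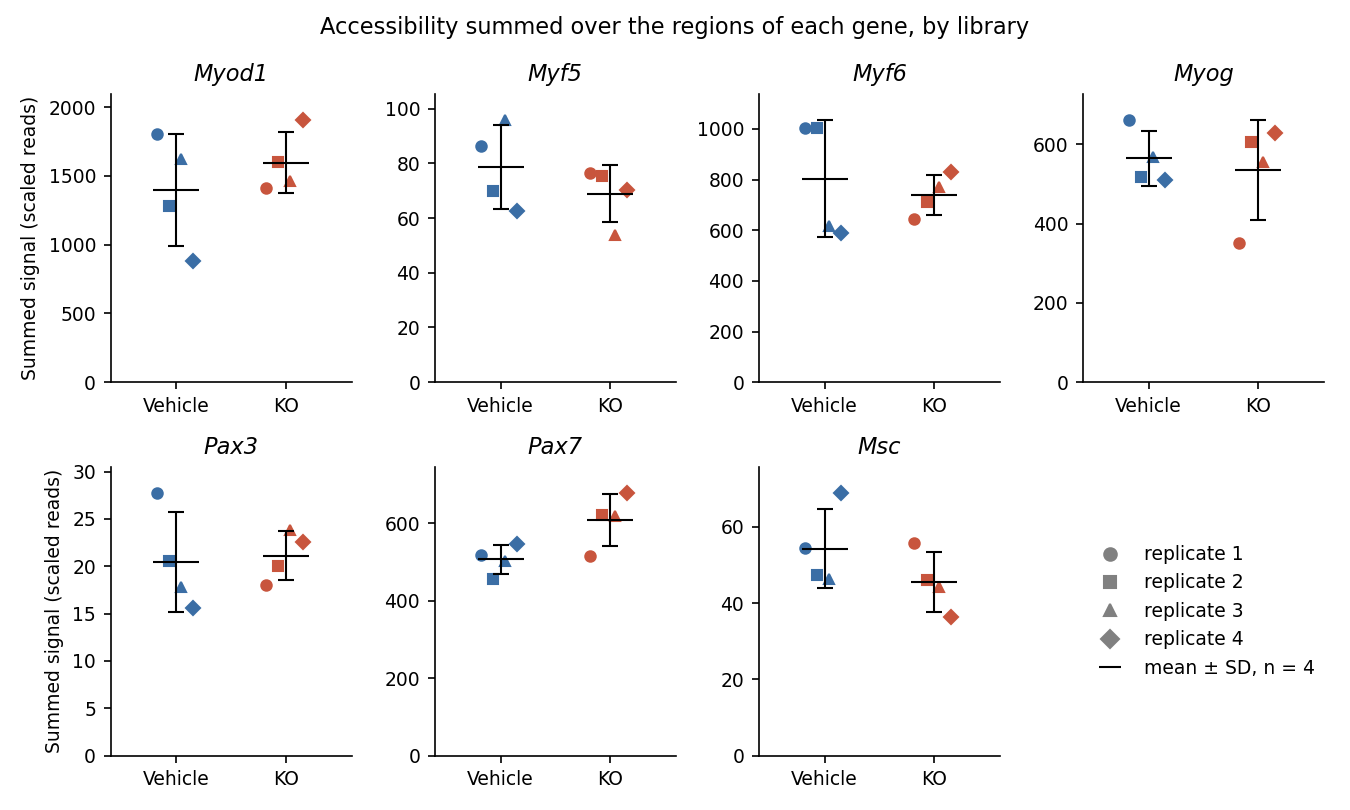
Signal summed over all regions of each gene (scaled reads, axes from 0) in each library, with marker shape for the replicate number, and the mean ± SD of 4 libraries in black. The groups overlap for all 7 genes, Vehicle replicate 4 is the lowest Myod1 library at 885, and iMSBmal1KO replicate 1 is the lowest Myog library at 351.

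Region by region, none of the 32 tested member regions was called by limma at an adjusted p of 0.05 over all tested regions, where 0.0881% of all regions were (39 higher and 71 lower). An unadjusted p under 0.05 was met by 2 member regions, both in Pax7 introns, where 9.22% of all regions met it. By limma-voom on read equivalents 0 member regions were called as well. The groups did not overlap in 3 of the 32 regions, where 5.48% of all tested regions were apart. In 2 of them iMSBmal1KO was the higher group (3.62% of all regions) and in 1 the lower (1.87%). Nothing is read from these small counts.

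The median log2 change over the 32 regions was 0.20, beside 0.12 over all tested regions, and 19 of the 32 lay above that all-region median. Promoter and other regions of the genes differed in their medians. The 13 promoter regions had a median of -0.02 beside 0.15 for all promoters, and the 19 other regions one of 0.25 beside 0.11. Being set by distance alone, within 1000 bp of a listed start, the promoter class also held regions annotated to coding exon 1 of Myod1 and Myf6. Its lowest value, -0.34, was that of a region annotated to the Myf6 transcript end. By family, the 17 regions of the myogenic regulatory factors had a median of 0.15 and the 14 Pax regions one of 0.39. Of these 14, 13 were regions of Pax7, and the 1 of Pax3 was at -0.28. Under median-of-ratios scaling the member median was 0.09 against 0.01 for all regions, and without Vehicle replicate 4 it was 0.16 against 0.04.

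**Figure D4:**
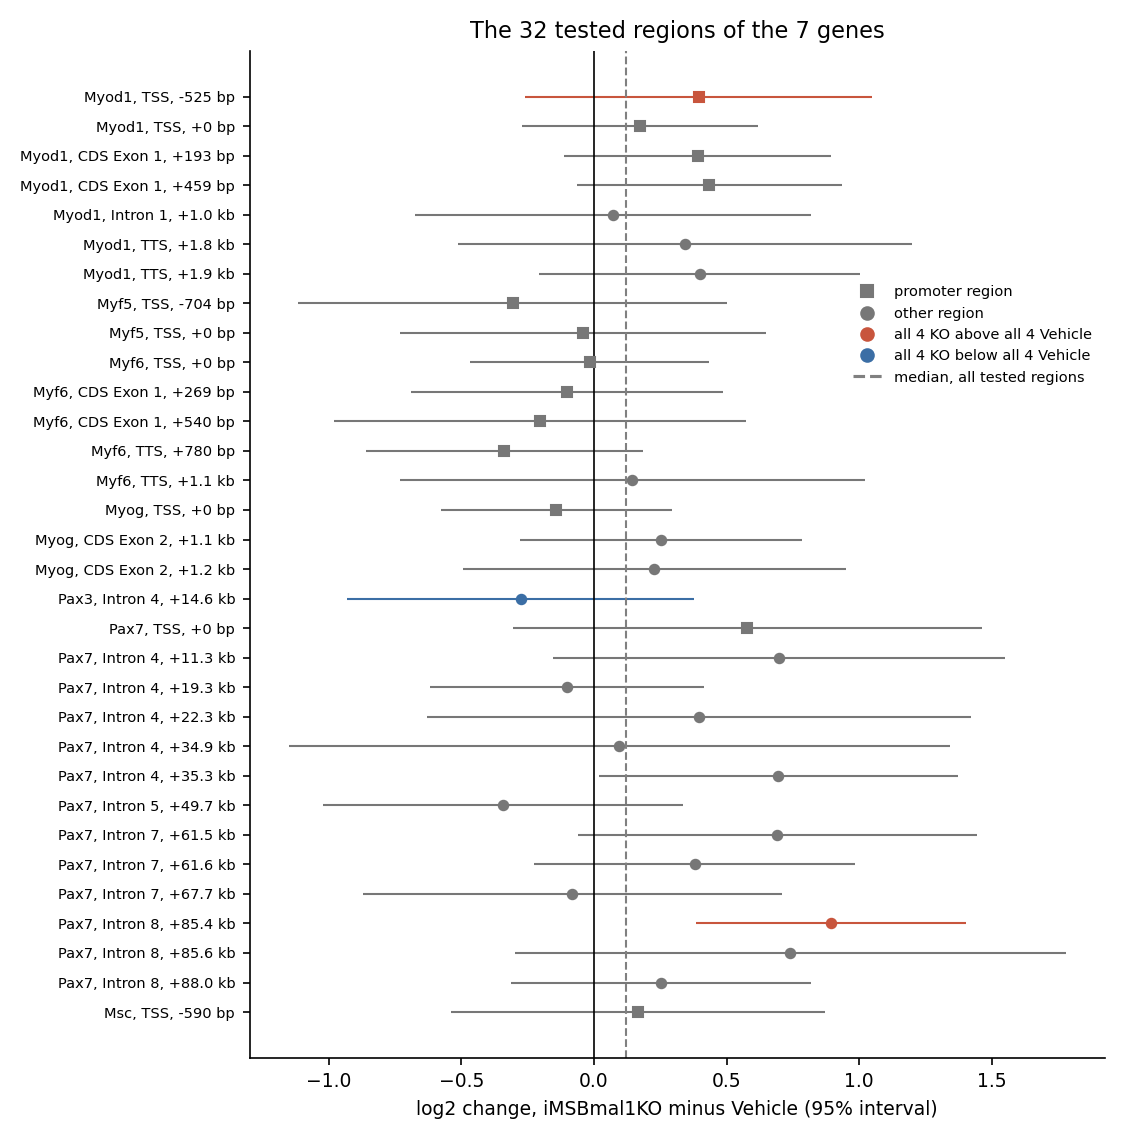
Log2 change (iMSBmal1KO minus Vehicle) with its 95% interval for the 32 tested regions, by gene, annotation and distance from the nearest listed start. Squares are promoter regions, and the dashed line is the median of all tested regions, 0.12. Red and blue mark the 3 regions whose groups did not overlap, and 2 intervals, both in Pax7 introns, lie wholly above 0.

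The smallest p of any member belonged to a region in intron 8 of Pax7, chr4:139747380-139747616. Its signal was 61.8, 51.4, 51.5 and 43.8 in Vehicle and 67.6, 110, 105 and 113 in iMSBmal1KO. All 4 iMSBmal1KO libraries lay above all 4 Vehicle libraries, by a narrow margin for replicate 1. The means were 52.1 ± 7.41 and 99.0 ± 21.2 (SD, n = 4), a log2 change of 0.89 ± 0.24 with a 95% interval of 0.39 to 1.40. Its unadjusted p was 0.00148 and its adjusted p 0.270 in limma, so it did not pass the threshold. Without Vehicle replicate 4 the change was 0.82 ± 0.23 with an adjusted p of 0.212, and over 16 alternatives the adjusted p ran from 0.157 to 0.735. The region that abuts it, chr4:139747312-139747379, read 7.32 ± 3.25 and 12.6 ± 4.92, and abutting regions are not independent.

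The other Pax7 region with a small p lay in intron 4, chr4:139797486-139797664. It read 30.9, 20.6, 36.9 and 12.5 in Vehicle and 29.96, 40.1, 37.0 and 48.9 in iMSBmal1KO. The groups overlapped, and Vehicle replicate 4 was the lowest library, with 4 reads. Its log2 change was 0.70 ± 0.33 (unadjusted p = 0.0449, adjusted p = 0.535 in limma).

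The most accessible Pax7 region was another one in intron 4, chr4:139813487-139813740, with 511 per kb in Vehicle, the 92.4th percentile of tested regions in genes outside promoters. It read 136, 92.5, 102 and 188 in Vehicle and 86.0, 126, 132 and 127 in iMSBmal1KO. Here Vehicle replicate 4 was the highest library. It had a log2 change of -0.10 ± 0.25, and 0.09 without that library. In intron 5, chr4:139783150-139783326 had the smallest p among the lower Pax7 regions, 18.2 ± 5.10 against 13.8 ± 1.50, a log2 change of -0.34 ± 0.33 with overlapping groups. Of the 13 tested Pax7 regions, 10 had a positive estimate and 9 lay above the all-region median. The tested Pax7 promoter region read 11.6 ± 7.38 and 15.3 ± 2.42.

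At Myod1 all 7 tested regions had a positive estimate, from 0.07 to 0.44, and 6 lay above the all-region median. Some of these regions abut and all share the same 8 libraries, so they are not independent. The promoter region read 1036 ± 319 in Vehicle and 1136 ± 198 in iMSBmal1KO, a log2 change of 0.17 ± 0.21 (95% interval -0.27 to 0.62), which turned to -0.04 without Vehicle replicate 4. In coding exon 1, chr7:46376933-46377253 read 271, 201, 266 and 119 in Vehicle and 264, 294, 244 and 305 in iMSBmal1KO. The groups overlapped, and Vehicle replicate 4 was again the lowest. Its log2 change was 0.44 ± 0.24 (unadjusted p = 0.0837, adjusted p = 0.574 in limma), and 0.18 ± 0.18 without that library.

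A weak region 525 bp before the Myod1 start, chr7:46375804-46375948, was the one Myod1 region whose groups were apart. It read 14.9, 14.4, 15.9 and 15.6 in Vehicle and 16.3, 19.2, 17.9 and 30.1 in iMSBmal1KO. The gap between the groups, 0.38, was smaller than the value of 1 read in all 8 libraries. Its log2 change was 0.39 ± 0.31 (adjusted p = 0.681 in limma).

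At Myf6 the promoter region read 757, 809, 433 and 422 in Vehicle and 524, 561, 578 and 627 in iMSBmal1KO, with means of 605 ± 206 and 573 ± 42.8. The Vehicle spread was the wider one, and the log2 change was -0.02 ± 0.22 (95% interval -0.47 to 0.43). Downstream, a region annotated to the transcript end, chr10:107493663-107493957, read 144, 124, 110 and 93.8 against 65.1, 78.6, 101.4 and 138. The groups overlapped, since iMSBmal1KO replicates 3 and 4 lay above the lowest Vehicle value, and the log2 change was -0.34 ± 0.25 (adjusted p = 0.658 in limma).

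At Myog the promoter region read 610, 475, 501 and 456 in Vehicle and 299, 540, 494 and 560 in iMSBmal1KO. The iMSBmal1KO replicate 1 value was the lowest of the 8, and the log2 change was -0.14 ± 0.21 (95% interval -0.58 to 0.30), or 0.06 without that library. In coding exon 2, chr1:134291055-134291150 read 35.0 ± 4.72 and 41.7 ± 3.34, a log2 change of 0.25 ± 0.26. The groups overlapped.

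The single tested Pax3 region, chr1:78182038-78182231 in intron 4, read 22.4, 16.4, 16.5 and 15.6 in Vehicle and 11.98, 15.1, 15.5 and 15.1 in iMSBmal1KO. All iMSBmal1KO values lay below all Vehicle values, with a gap of 0.13, less than the value of 1 read in all 8 libraries. The log2 change was -0.28 ± 0.31 (adjusted p = 0.778 in limma). At Myf5 the promoter regions read 15.6 ± 4.69 against 14.8 ± 1.90 and 14.4 ± 4.01 against 12.04 ± 5.32. The tested Msc region read 15.5 ± 4.39 against 17.7 ± 5.36. At these low signals, differences of the size of the intervals in the plot of log2 changes could not be detected.

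Myogenic genes are known for enhancers that lie outside the gene body, so regions within 60 kb of a listed start were read as well. There were 185 such regions annotated to other genes or to none, of which 67 were tested. None was called by limma at an adjusted p of 0.05, and 3 had an unadjusted p under 0.05, a share below the 9.22% of all regions. The Myod1 neighbourhood was the densest. Of its 31 tested regions, 12 reached the 90th percentile of signal per kb in their class (promoter, intergenic or other), and 6 of these 12 were intergenic. The rest were annotated to other genes, Kcnc1 downstream and 1700025L06Rik upstream. All 12 had overlapping groups, with log2 changes from -0.40 to 0.39.

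The Myod1 locus is known for a distal regulatory region close upstream and a core enhancer farther upstream. Intergenic regions upstream of the gene, named after their values were seen, were strongly accessible, below the 1937 per kb of the Myod1 promoter. The nearest, 4904 bp before the start (chr7:46370996-46371570), read 1110, 772, 792 and 535 in Vehicle and 728, 939, 928 and 1004 in iMSBmal1KO. The groups overlapped, and the log2 change was 0.20 ± 0.21 (95% interval -0.22 to 0.63). Its level, 1395 per kb, was at the 99.1st percentile of intergenic regions.

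Another, 22718 bp before the start (chr7:46353016-46353756) and at 1054 per kb, read 781 ± 184 in Vehicle and 808 ± 75.6 in iMSBmal1KO, a log2 change of 0.07 ± 0.19 (95% interval -0.32 to 0.46). The farthest of these, 34531 bp before the start (chr7:46341482-46341943) and at 1511 per kb, read 698 ± 204 and 704 ± 102, a log2 change of 0.05 ± 0.21. In each of these intergenic regions Vehicle replicate 4 was the lowest library, as it was at the promoter. The smallest p near Myod1 was that of a weak region 59261 bp before the start, chr7:46317088-46317213, which read 16.0, 16.4, 14.6 and 18.8 against 24.4, 29.3, 28.6 and 30.1. The groups were apart, and the unadjusted p was 0.0180 and the adjusted p 0.494 in limma.

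Upstream of Myf6, chr10:107499756-107500033 held 834 per kb, the 96.7th percentile of intergenic regions, more than the Myf5 promoter held. It read 232 ± 57.3 in Vehicle and 238 ± 31.8 in iMSBmal1KO, a log2 change of 0.07 ± 0.22. Near Myog the smallest p was at the transcript end of Ppfia4, chr1:134297014-134297143, 13.2 ± 2.07 against 5.86 ± 2.57, with an adjusted p of 0.530 in limma. Near Msc it was at chr1:14716524-14716617, 6.75 ± 3.65 against 14.8 ± 3.37, with an adjusted p of 0.505. No region near Pax3 was tested, and the 4 near Pax7 all lay under the 90th percentile of their class.

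**Figure D5:**
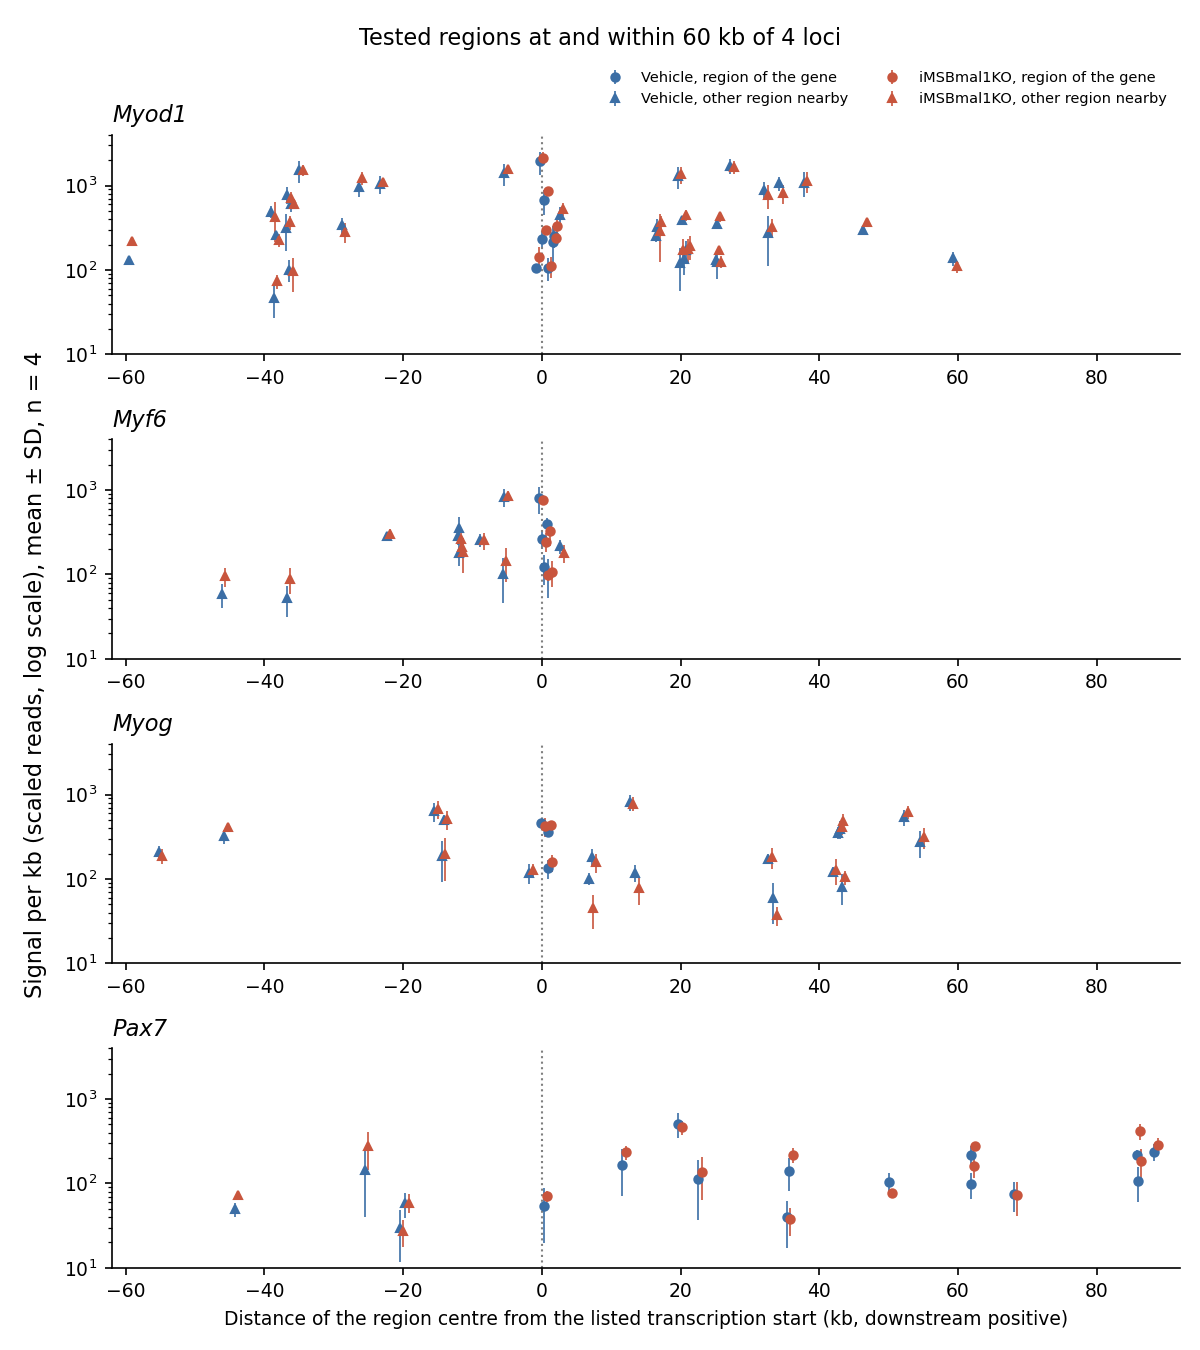
Signal per kb (log axis) of the tested regions of Myod1, Myf6, Myog and Pax7 (circles) and of other tested regions within 60 kb (triangles), by distance from the listed start, as mean ± SD of 4 libraries per group (blue Vehicle, red iMSBmal1KO, drawn side by side); an error bar that would pass below the axis is cut there. Regions above 1000 per kb lie on both sides of the Myod1 start, and those downstream are all annotated to another gene, Kcnc1. The Pax7 regions stay under 600.

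Genes that act with the myogenic factors were read from lists through the same test of summed signal. None of the 3 E-proteins, 9 measured bHLH inhibitors or 8 measured satellite cell markers was called in either direction, beside 0.170% of all genes. None of the measured myofibre, fibro-adipogenic, endothelial, macrophage, smooth muscle or Schwann cell markers was called. The list medians lay between 0.01 for satellite cell markers and 0.42 for Schwann cell markers, beside 0.12 for all genes.

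Among 16 measured target genes of the myogenic factors, 2 were called higher and none lower, beside 0.170% of all genes called. The lists were chosen with earlier results of these data known, so these counts are description only. Cdkn1a, which encodes the cell cycle inhibitor p21, summed to 134, 181, 210 and 163 in Vehicle and 371, 534, 431 and 331 in iMSBmal1KO. The groups were far apart, with means of 172 ± 31.7 and 417 ± 88.1, a log2 change of 1.27 ± 0.18 and an adjusted p of 0.00348 in limma. Beside 3.62% of all tested regions, all 3 tested Cdkn1a regions lay higher in iMSBmal1KO without overlap. One of them, at the start, chr17:29093703-29094004, was called on its own, 117 ± 12.5 against 253 ± 45.2, with an adjusted p of 0.0444. The call of the sum held in all 14 alternatives.

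Chrna1, the alpha subunit of the muscle acetylcholine receptor, summed to 78.9, 88.4, 66.1 and 50.03 in Vehicle and 176, 157, 116 and 146 in iMSBmal1KO. The groups were apart, with means of 70.8 ± 16.6 and 149 ± 25.4, a log2 change of 1.07 ± 0.21 and an adjusted p of 0.0346 in limma. None of its 6 tested regions was called singly, though all 6 had positive estimates. The call was lost without Vehicle replicate 1 or 3, without any 1 of the iMSBmal1KO libraries, and with promoter regions alone (adjusted p from 0.0506 to 0.137), while the log2 change stayed between 0.92 and 1.30. Chrna1 also stands in the list of 10 genes known to respond to denervation. There it was the only 1 of 7 measured genes called, beside 0.170% of all genes. The others of that list, Chrnd, Chrng and Myh8, held no region strong enough to be tested. Chrnd lay lower in iMSBmal1KO without overlap, 22.7 ± 3.83 against 12.05 ± 0.86. Chrng and Myh8 had higher iMSBmal1KO means, 5.19 ± 0.88 against 11.3 ± 5.23 and 40.2 ± 8.31 against 51.3 ± 10.05.

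The genes whose summed signal followed a member most closely over the 8 libraries were found among at least 11583 genes by Pearson r, given as description. Eef1a2 and Cacnb1, both expressed in muscle fibres, followed Myod1 at an r of 0.99 each, but the median gene followed Myod1 at 0.51, and all genes share library and depth. Samd13 and Lrrc24 followed Pax7 at 0.93 and 0.90, with a median of 0.04 over all genes. Rilpl1 and Tmem52 followed Myog at 0.96 each, and Arhgap31 and Akap6 followed Myf6 at 0.95 each. Alkbh6 and Ccs followed Myf5, Gm37198 and Gm23864 followed Pax3, and Tdg and Adgrf5 followed Msc, all at 0.95 or more. None of the 7 genes had another member among its closest pair.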

How the data were processed

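ATAC-seq was measured in 8 gastrocnemius libraries. The authors deposited 1 table of annotated regions that holds a scaled signal for every library, and Partek, Bowtie2, MACS2 and DESeq2 with the builds mm10 and GRCm39 are named in the submitters' processing notes; how the region caller, duplicate removal and read shift were set is not given in the sources used here. The listed bounds of the 7 genes lay within 793 bp of GRCm38.p6, so coordinates are read as that build and counted from 1. In each library 98.3% to 99.8% of deposited signal values above 0 were whole multiples of 1 step, within 0.02 reads. The signal was taken as reads over a factor per library. Complete recovery of reads is not claimed, so edgeR and DESeq2 were not run and the planned fallback was used. Limma-voom on read equivalents was run only as an alternative.

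That test was limma-trend with robust empirical Bayes (limma 3.58.1, R 4.3.3) on log2(signal + 1), fitted to all 8 libraries with no covariate beside group, in regions where at least 4 libraries reached 0.762 reads per M (1000000) and the total was 15 or more. Benjamini-Hochberg adjustment ran across the tested regions, or across genes for summed signal, and calls needed an adjusted p under 0.05. The scripts were tested on simulated data. Regions follow the table's gene annotation. Reads carry no molecular identifiers, so depth describes counting error only.

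Members, lists and the rule for named regions were chosen with earlier results of these data known. The rule took, for each gene, the most accessible promoter region per kb, the strongest region outside promoters, the tested regions of lowest p for a higher and for a lower value, and the nearby region with the smallest p; the 2 closest genes by Pearson r; and list genes that passed or had the 2 largest changes in each direction. Other scalings, pseudocounts (0.5 and 5), filters, limma-voom, a replicate block and leaving out each library were the alternatives. A further pathway list is not reported here.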

Additional observations from a re-analysis of the deposited data

Results flagged for a closer look

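A single library lay far from the other 3 of its group in 3 of 64 groups of 4 libraries examined by Dixon's test, and chance alone flags about 1 in 20 groups. At the tested Pax3 region in intron 4, Vehicle replicate 1 read 22.4 against 15.6 to 16.5 in the other Vehicle libraries. At the same region iMSBmal1KO replicate 1 read 11.98 against 15.1 to 15.5 in its group. At the most accessible Pax7 region, in intron 4, iMSBmal1KO replicate 1 read 86.0 against 126 to 132.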

How the results depend on the processing

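No member region and no nearby region was called under any of the 16 alternatives, or with a window of 30 kb, and the member median stayed between 0.09 and 0.27. The count over all tested regions, 110, was 279 under median-of-ratios factors, 277 under TMM factors, 342 under cyclic loess scaling, 197 with no filter on low values and 322 by limma-voom; leaving out single libraries gave 32 to 281, the highest without Vehicle replicate 4. With the replicate block it was 100. The labels do not say whether equal numbers pair the samples. Same-numbered libraries correlated at -0.06, 0.14, 0.02 and 0.02 in their deviations from group means, and differently numbered ones at -0.19 to 0.25. Such correlations cannot decide whether samples shared a litter or a batch. With the block none of the 7 summed genes was called (Pax7 at an adjusted p of 0.383 in limma), and the count of genes rose from 33 to 130. Without the block, that count was 16 to 69 over other scalings and sums, and 7 to 132 over left-out libraries.

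None of the 7 summed genes crossed the threshold. Pax3 turned negative, at -0.28 over tested regions only, at -0.042 under median-of-ratios factors and at -0.041 under TMM factors; Msc turned to 0.17 over tested regions only. Leaving out single libraries took Myf6 from -0.22 to 0.040, Myog from -0.19 to 0.084 and Pax3 from -0.042 to 0.22. Of 304 values of 19 named regions, 10 changed sign, all through single libraries. These ranges were -0.24 to 0.093 for the most accessible Pax7 region in intron 4, -0.17 to 0.14 for the Myf6 promoter, -0.24 to 0.065 for the Myog promoter, -0.0052 to 0.33 for Msc, -0.038 to 0.33 for the Myod1 promoter and -0.18 to 0.35 for the Myf6 transcript end. The cause was not tested. Neither edgeR nor DESeq2 was run. Depth limits the weak regions of Myf5, Pax3 and Msc.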

Other observations

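List genes with the largest changes of summed signal, none past the threshold, are given as values (mean ± SD of 4 libraries, Vehicle then iMSBmal1KO, adjusted p from limma). Among satellite cell markers, the growth factor receptor Fgfr4 read 94.0 ± 25.5 and 56.3 ± 10.2, a log2 change of -0.70 ± 0.23 (adjusted p = 0.387). The syndecan Sdc4 read 1326 ± 184 and 1701 ± 165, a log2 change of 0.37 ± 0.15 (adjusted p = 0.461), with Vehicle replicate 4 the lowest library at 1066. Cdh15, the muscle cadherin, read 505 ± 45.5 and 497 ± 34.5.

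Among inhibitors of bHLH factors, the Notch effector Hey1 read 346 ± 132 and 472 ± 86.2, a log2 change of 0.51 ± 0.23 (adjusted p = 0.475), and Twist2 read 122 ± 35.2 and 95.7 ± 11.8. Of the myofibre markers, Myh4, the fast myosin of type IIb fibres, read 1193 ± 432 and 1797 ± 291, a log2 change of 0.66 ± 0.25 (adjusted p = 0.461). Vehicle replicate 4 was the lowest library at Hey1, with 191, and at Myh4, with 600, and the highest at Twist2, with 172. Changes without that library are not given for these genes, so its part in them is not known.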
